A study of Mus musculus with 3 samples.

Results

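The genes described here are 10 markers of the lung's alveolar and airway epithelium: Sftpa1, Sftpb, Sftpc, Sftpd, Napsa, Ager, Abca3, Slc34a2, Nkx2-1 and Scgb1a1. They were chosen by name as markers of these cells, by a rule that uses no measured value, although earlier results of these data were known. All 10 were on the array design, which named 27677 genes in all, through 15 probes. The arrays compared tumour with nontumour tissue of liver, stomach and lung from mice carrying a transgene for AID (AID Tg), activation-induced cytidine deaminase, an enzyme that edits DNA in B cells. The liver and stomach (gastric) tumours were each set against nontumour tissue of the same AID Tg mouse, whereas the lung tumour of an AID Tg mouse was set against normal lung of a wild-type (Wt) mouse, so lung differences join tumour state, genotype and animal. The promoter driving the transgene and the strain, age and sex of the mice are not given in the sources used here. Each organ had 1 array with 2 colours, no replicate and no dye swap, so no test between tissues was possible and no p-value is given.

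Ratios are given by dye as log2 of Cy5 over Cy3: a value above 0 is called Cy5-high, one below 0 Cy3-high, and 1 log2 unit is 2-fold. The sources disagree on which dye carried the tumour. The labels place tumour RNA in Cy3, yet the authors' deposited table puts Cy5-high spots under its headings for genes raised in tumours. By those headings Cy5 is the likely tumour channel, and Cy3-high genes are then lower in the tumour; by the dye labels every such direction turns. Sizes and counts do not depend on this. Lung values come from the authors' deposited table, which lists spots that differ by at least 2-fold and gives no error, and the scanner values of that array were not analysed here. A lung spot outside the table therefore has no value, which does not show that it was unchanged.

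Alveolar type 2 cells make surfactant, a film of lipid and protein that lowers surface tension and binds microbes. Surfactant proteins B and C are small hydrophobic proteins that spread the lipid, and surfactant proteins A and D are collectins, secreted lectins of innate defence. Flat alveolar type 1 cells form the surface for gas exchange, and club cells of the small airways secrete Scgb1a1. NKX2-1, also called TTF-1, is the transcription factor that lung epithelium shares with thyroid, and it binds near the start of several surfactant genes.

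Start-site sequences are shown because several of these genes are textbook NKX2-1 targets. Whether these sequences bear on the lung ratios was not tested. RefSeq sequence of the GRCm38.p6 build was held for 6 of the 10 genes. The 250 bases before the start of the gene are given 5′ to 3′ for the surfactant genes Sftpa1 (chr14:41131538-41131787, plus strand) and Sftpb (chr6:72304360-72304609, plus strand), for Slc34a2 (chr5:53049103-53049352, plus strand) and for the type 1 cell gene Ager (chr17:34597600-34597849, plus strand). Capitals mark matches to the motifs searched on both strands.
Sftpa1: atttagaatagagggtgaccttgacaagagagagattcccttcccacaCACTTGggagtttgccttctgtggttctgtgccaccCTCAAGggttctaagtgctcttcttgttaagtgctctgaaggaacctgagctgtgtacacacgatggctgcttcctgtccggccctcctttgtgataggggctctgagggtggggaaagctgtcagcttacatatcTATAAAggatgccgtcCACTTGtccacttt
Sftpb: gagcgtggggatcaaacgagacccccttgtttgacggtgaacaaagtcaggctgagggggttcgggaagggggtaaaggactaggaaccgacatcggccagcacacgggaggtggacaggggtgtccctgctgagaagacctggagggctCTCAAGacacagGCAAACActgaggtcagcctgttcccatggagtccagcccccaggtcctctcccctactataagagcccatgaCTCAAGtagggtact
Slc34a2: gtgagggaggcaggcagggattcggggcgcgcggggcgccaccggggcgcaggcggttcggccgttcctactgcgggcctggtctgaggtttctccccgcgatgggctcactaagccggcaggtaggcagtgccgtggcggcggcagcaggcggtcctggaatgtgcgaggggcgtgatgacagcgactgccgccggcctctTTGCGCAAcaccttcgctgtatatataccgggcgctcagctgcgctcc
Ager: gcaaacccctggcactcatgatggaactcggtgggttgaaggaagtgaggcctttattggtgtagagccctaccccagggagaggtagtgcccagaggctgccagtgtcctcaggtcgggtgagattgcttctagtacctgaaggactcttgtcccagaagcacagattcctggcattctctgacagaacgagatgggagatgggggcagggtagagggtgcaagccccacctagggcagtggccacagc
The core CTCAAG, bound by NKX2-1, stood once before Sftpa1 (from position -166) and at 2 places before Sftpb (from -100 and -15), and 13.3% of 32851 promoters of that length held it. CAAGTG, the general NKX2 core, was found at 2 places before Sftpa1 on the minus strand (from -202 and -14), against 11.6% of promoters. The forkhead motif TGTTTGC lay on the minus strand before Sftpb (from -88; 4.3% of promoters), and TGTTTAC (3.17%) was in none of the 6. The C/EBP motif TTNNGCAA occurred before Slc34a2 (from -48; 9.56%), where the same 8 bases match on both strands, and TATAAA before Sftpa1 (from -30; 12.4%). The sequences before Ager, Abca3 and Nkx2-1 held no match. Each match is a description of letters and not a shown binding site.

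In lung, 8 of the 10 genes were listed in the authors' deposited table, and all 8 were Cy3-high, the likely normal-lung side. Their log2 ratios ran from -4.29 for Sftpa1 to -1.70 for Abca3, with a median of -3.35. The 4064 Cy3-high spots of that table had a median of -1.68. Over all 5286 listed genes, which include Cy5-high ones, the median was -1.27. Of all 27677 genes on the design, 12.3% had Cy3-high spots and 6.74% Cy5-high spots there. Sftpc and Scgb1a1 were not listed. In bulk tissue, fewer epithelial cells and less RNA per cell cannot be told apart.

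**Figure D1:**
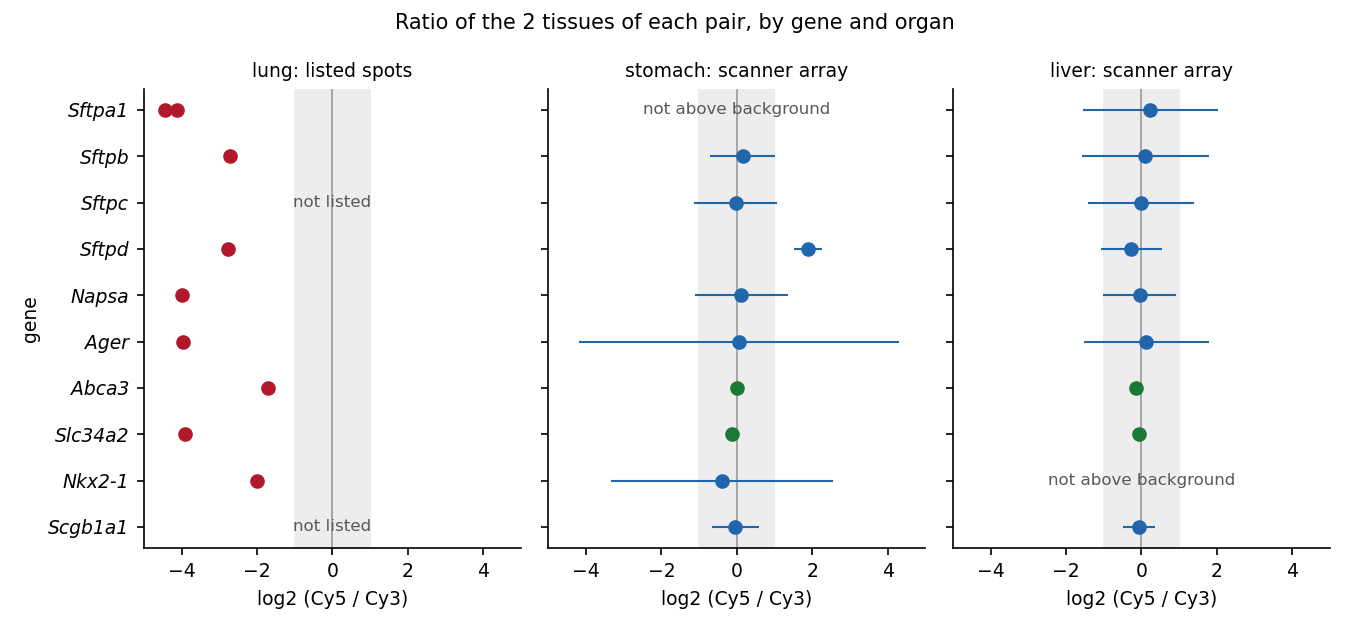
Log2 Cy5 over Cy3 ratio of each of the 10 genes in lung, stomach and liver (1 array each). Blue points have the scanner software's error of 1 probe as bars, green points the SD between probes (smaller than the point where no bar shows), and the grey band marks differences under 2-fold. Red points are the 9 spots listed for lung, which lie between -4.45 and -1.70, and only Sftpd leaves the band in stomach (1.89), on the other side.

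Among the 3 surfactant protein genes listed for lung, Sftpa1 had the largest ratio. Its 2 probes, 1 at chr14:38560683-38560742 and 1 at chr14:38562129-38562188 in the design's coordinates (build not given in the sources used here), match the same RefSeq transcript. The authors' deposited table gave the first a Cy3 signal of 634000 and a Cy5 signal of 29100, a 21.9-fold difference. It gave the other probe 17300 and 994, a 17.4-fold difference. The gene's mean in the authors' deposited table was thus -4.29, and its probes, at -4.45 and -4.12, differed little beside that size (0.23, SD of the 2 probes). They ranked 30 and 71 among the 4064 Cy3-high spots there.

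Sftpd, which lies near Sftpa1 on the same chromosome (chr14:38598705-38598764, minus strand), had a Cy3 signal of 281000 and a Cy5 signal of 40800 in the authors' deposited table, a log2 ratio of -2.78 (6.87-fold). Sftpb had 6670 in Cy3 and 1020 in Cy5 in the authors' deposited table, and its ratio of -2.71 (6.53-fold) was close to that of Sftpd. The smaller differences of these genes placed them at ranks 554 and 612 of the 4064 Cy3-high spots. The coordinates of the Sftpb probe cover 2572 bases (chr6:72325120-72327691), more than a probe's length, so its match to the genome is split. Sftpc, the surfactant protein most restricted to type 2 cells, has 1 probe (chr14:65165576-65165836) and no lung value. In the other organs, 0 of the 29 saturated gene spots of the liver array and 0 of the 23 of the stomach array were in the authors' lists, although 18 and 20 of them passed a scanner p of 0.01. Whether saturation bears on Sftpc or Scgb1a1 in lung was not tested.

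Napsa encodes napsin A, an aspartic protease that cleaves the surfactant protein B precursor. Its signals in the authors' deposited table were 30900 in Cy3 and 1950 in Cy5, a log2 ratio of -3.99 (15.8-fold). Abca3 encodes the transporter that loads lipid into lamellar bodies, where surfactant is stored. Of its 4 probes only 1 (chr17:22590968-22591026) was listed in the authors' deposited table, with 53000 in Cy3 and 16300 in Cy5, a log2 ratio of -1.70 (3.25-fold). That was the smallest difference of the 8 listed genes. The same probe was clearly above background in the other organs, as described for stomach and liver.

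Slc34a2, the sodium-phosphate cotransporter of the type 2 cell surface, had 1 of its 2 probes listed (chr5:52444189-52444248). There the authors' deposited table held 16700 in Cy3 and 1110 in Cy5, a log2 ratio of -3.92 (15.1-fold). The other probe, about a kilobase upstream at chr5:52443055-52443114, was not listed, so the ratio of this gene rests on 1 probe. Ager, the receptor for advanced glycation end products and a surface protein of type 1 cells, had 18900 in Cy3 and 1210 in Cy5 in the authors' deposited table, a log2 ratio of -3.95 (15.5-fold). Napsa, Ager and Slc34a2 thus lay close together in the list, at ranks 95, 103 and 107.

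Nkx2-1, listed on the array under its older name Titf1, had 9950 in Cy3 and 2490 in Cy5 in the authors' deposited table, a log2 ratio of -2.0 (4.0-fold). It ranked 1382 of the 4064 Cy3-high spots, whose median was -1.68 (3.21-fold). The transcription factor and Abca3 therefore stood nearer the middle of the Cy3-high spots, whereas Sftpa1, Napsa, Ager and Slc34a2 lay beyond their 10th percentile of -3.03. At a limit of 3-fold, all 8 genes still counted as Cy3-high, as did 1869 of all 27677 genes on the design.

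**Figure D2:**
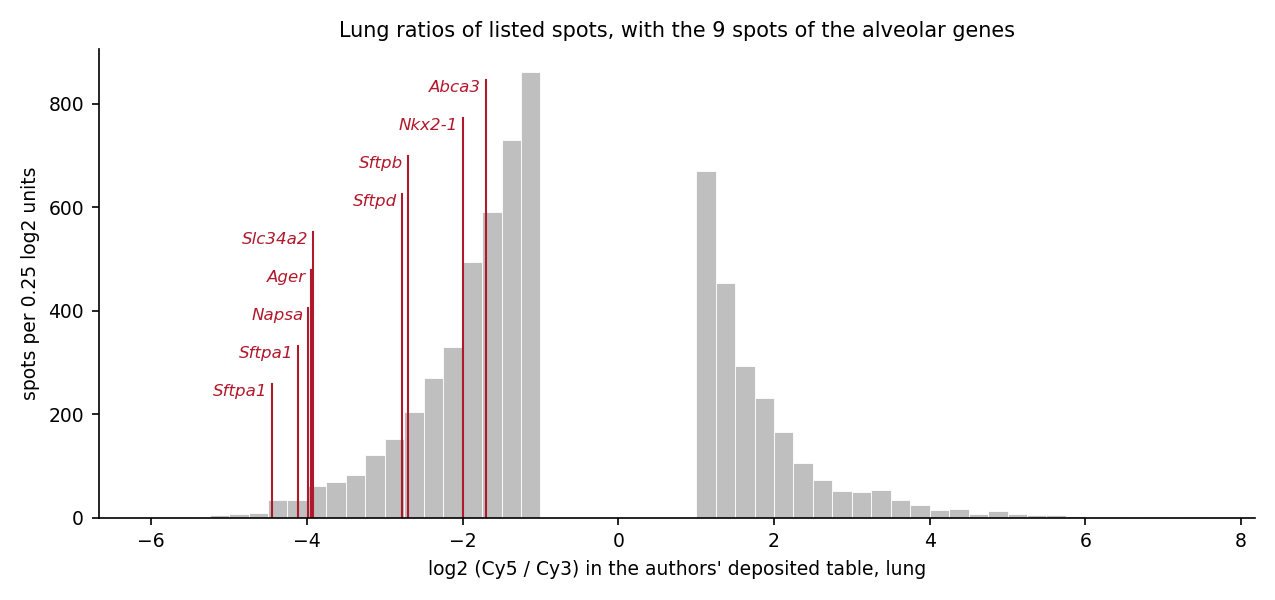
Number of spots in the authors' deposited lung table per 0.25 log2 units of the Cy5 over Cy3 ratio (grey), with a red line at each of the 9 spots of the 8 listed genes (line height has no meaning). The gap around 0 is the table's 2-fold limit, and the 9 lines span -4.45 to -1.70 on the Cy3-high side.

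Because these genes define lung tissue, the lung signals were set beside those of the same spots in the other organs, as a description only, since the arrays were not normalized together. At the 9 listed spots the lung Cy3 signal of the authors' deposited table was 5.00 to 2653 times the brightest of the 4 stomach and liver channels, with a median of 79.6. Sftpa1 stood at 2653 times on 1 probe. Its other probe was not well above background in those 4 channels and is given no multiple of its own. The range and median, and the Cy5 comparison below, still count that probe. Sftpd stood at 82.9, Ager at 81.8, Napsa at 79.6, Nkx2-1 at 47.8, Slc34a2 at 27.5, Sftpb at 12.9 and Abca3 at 5.00. For several genes the brightest other channel was itself dim, with processed signals of 208 for Nkx2-1 and 231 for Ager, against 10600 for Abca3. Multiples over such dim signals are imprecise, and their order carries little meaning. Over all 4064 Cy3-high lung spots of the authors' deposited table, the median multiple was 2.12. The lung Cy5 signal too was above all 4 of those channels at each of the 9 spots, by 1.54 times for Abca3 up to 122 times for a probe of Sftpa1. At the 9 listed spots, signals were thus brighter in both lung channels than in any stomach or liver channel. These spots were listed for being at least 2-fold Cy3-high in lung, a choice that may favour a bright lung Cy3 signal. The Cy5 multiples have no reference over all listed spots. Sftpc, Scgb1a1 and the unlisted probes of Abca3 and Slc34a2 had no lung signal, so the comparison does not cover them.

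**Figure D3:**
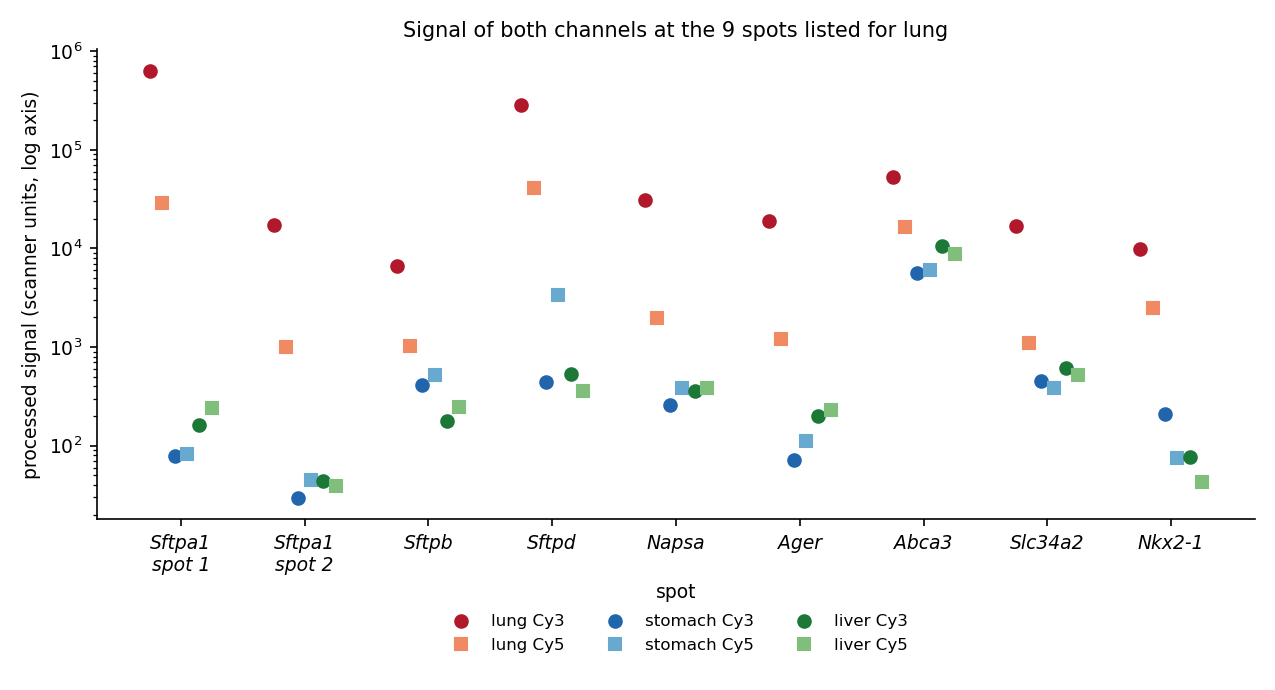
Processed signal (log scale) of both channels of the lung, stomach and liver arrays at the 9 spots listed for lung. The lung Cy3 signal was the highest of the 6 channels at each spot, from 6670 for Sftpb to 634000 for Sftpa1, and the arrays were not normalized together.

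In stomach, 9 of the 10 genes had a value, and Sftpa1 was not well above background on either probe in either channel. Sftpd, the surfactant collectin, was the only one at least 2-fold apart, and it was Cy5-high. Of all 25322 genes measured, 0.873% were Cy5-high and 1.41% Cy3-high by this limit. Its raw signal was 160 in Cy3 and 609 in Cy5, where negative control spots had medians of 119 and 68.4. The log2 ratio was 1.89 (3.71-fold; scanner error 0.38, 1 probe), rank 21 of 25322 genes on the Cy5-high side. The scanner software's own processed signals of 444 and 3390 gave 2.93 (7.62-fold). The direction was thus opposite to that of the same probe in lung, and the difference was larger than the measurement error of the spot, while the spread between animals is unknown.

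The other 8 genes lay between -0.39 and 0.15 in stomach, inside the central 95% of all genes (-0.71 to 0.66). The median of all 9 was 0.02, against 0.00 over all genes. Sftpb was at 0.15 (scanner error 0.85), Sftpc at -0.03 (1.11), Napsa at 0.12 (1.23) and Scgb1a1 at -0.04 (0.62). None of these ratios exceeded the scanner error given beside it, which belongs to the scanner software's own ratio. Those ratios, in the same order 0.33, -0.16, 0.56 and -0.06, were smaller than the errors too. Ager was well above background only in Cy5 (raw signals 124 in Cy3 and 80 in Cy5), with a ratio of 0.06 (4.25) that had the other sign under another normalization. Nkx2-1 was so only in Cy3 (150 and 84.4), at -0.39 (2.95). The errors of both were far larger than the ratios, so no fold is given for them.

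On their brighter probes, Abca3 and Slc34a2 had stomach signals several times the negative control medians of 119 in Cy3 and 68.4 in Cy5. Their other probes stood closer to those medians. Abca3 gave 555 and 1090 (Cy3 and Cy5) on the probe that was also listed for lung, and 538 and 860 on the next one; its mean was 0.02 (SD 0.14, 3 probes). Its other 2 probes lie upstream. The one at chr17:22564837-22565299 read 142 and 109, and the one at chr17:22564090-22564149 was not well above background in any of the 4 stomach and liver channels. Slc34a2 gave 330 and 443 on its unlisted probe and 158 and 128 on the probe listed for lung, and its mean was -0.12 (SD 0.05, 2 probes). For both genes the ratios of the probes differed by less than 2-fold.

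In liver, 9 genes had a value and none was 2-fold apart; 0.152% of 25606 genes were Cy5-high there and 0.0703% Cy3-high. The values ran from -0.26 for Sftpd to 0.24 for Sftpa1, inside the central 95% of all genes (-0.38 to 0.40), with a median of -0.04. Sftpd had raw signals of 180 in Cy3 and 121 in Cy5 and a ratio of -0.26 (scanner error 0.82), so the stomach difference had no counterpart beyond error in this organ. Sftpa1, well above background on 1 of its probes (137 and 100), was at 0.24 (1.79). Sftpb was at 0.10 (1.68), Sftpc at -0.01 (1.41), Napsa at -0.04 (0.96), Ager at 0.13 (1.65) and Scgb1a1 at -0.07 (0.42). All of these errors were larger than the ratios. Nkx2-1 was not well above background in either channel (142 and 74.2).

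Abca3 was again well above the negative controls in liver, with 1100 in Cy3 and 1340 in Cy5 on the probe listed for lung and 668 and 802 on the next, and a mean of -0.14 (SD 0.16, 3 probes). Slc34a2 gave 378 and 448, and 181 and 144, with a mean of -0.07 (SD 0.03, 2 probes). Over all 15 probes, 12 were well above background in each liver channel and 11 in each stomach channel, and none was saturated. Negative control spots of the liver array had median raw signals of 127 in Cy3 and 67.7 in Cy5, so most of these probes stood little above them.

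The genes most like Sftpc were sought by the distance of log2 ratios over the 2 arrays that measured it. The nearest named ones were Slc13a5, Clec2g and Ppil4, but 4489 of 24758 genes lay within 0.1 of it, so this likeness reflects only values near 0.

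Further lists of lung cell markers were counted in the authors' deposited table, without the 10 genes themselves. Alveolar type 2 markers were Cy3-high for 15 of 20 and Cy5-high for 0 (75%, against 12.3% of all genes). They included Hc, complement C5, at -5.55, the calcium-binding protein gene S100g at -4.95, the chemokine gene Cxcl15 at -4.57, Lpcat1, which remodels surfactant phospholipid, at -3.79, and the lamellar-body protein gene Lamp3 at -2.54. Alveolar type 1 markers were Cy3-high for 15 of 20 and Cy5-high for 1. Among these were Akap5 at -4.48, Clic5 at -4.20 (SD 0.21, 2 probes), the water channel gene Aqp5 at -3.23, Hopx at -3.29 and Pdpn, podoplanin, at -1.66 in the authors' deposited table. The medians of the listed genes were -3.10 for type 2 and -2.97 for type 1 markers. Over all listed genes, of both signs, the median was -1.27, and over the Cy3-high spots alone it was -1.68.

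Of 19 genes for surfactant handling and alveolar lipid, some of them also in the type 2 list, 9 were Cy3-high and 2 Cy5-high in the authors' deposited table. The shares over all genes were 12.3% and 6.74%. The sodium channel subunits that clear alveolar fluid, Scnn1g at -3.92 and Scnn1b at -2.45, and the desaturase gene Scd1 at -2.93 were on the Cy3-high side. Airway markers were on that side for 9 of 18 club and secretory genes and 13 of 19 ciliated genes, with 1 and 0 Cy5-high. Cyp2f2, a cytochrome P450 of club cells, was at -5.15, Scgb3a1 at -2.43 and Foxj1, the master regulator of motile cilia, at -3.62 in the authors' deposited table, while Scgb3a2 was not listed. Tff2, a trefoil peptide typical of gastric mucosa, was the Cy5-high airway gene there, at 3.95.

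Of a list of 20 transcription factors, 9 were Cy3-high and 3 Cy5-high in the authors' deposited table. The list was drawn up for lung epithelium but also holds Tcf21 (-3.22), Sox17, Hnf4a and Cdx2, which are not particular to it. The counts are thus not of lung epithelial factors alone. Sox2 stood at -3.99, Elf5 at -3.65 and Foxa2, a partner of NKX2-1 at surfactant genes, at -2.56, whereas Elf3 was Cy5-high at 2.94 and Foxa1 was not listed. Among genes of the thyroid, which shares NKX2-1, 1 of 8 was Cy5-high (Pax8, 1.0) and none Cy3-high in the authors' deposited table. Over all genes the shares were 6.74% Cy5-high and 12.3% Cy3-high, so counts this small do not set the thyroid list apart.

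Other cell types of the lung were counted in the same way, beside shares of 12.3% Cy3-high and 6.74% Cy5-high over all genes. Lung endothelium was Cy3-high for 19 of 20 genes in the authors' deposited table, including Calcrl at -4.52, Cldn5 at -3.49, Cdh5 at -2.90 and Pecam1 at -2.06, with a median of -2.47 over those listed. Fibroblast and smooth muscle markers were Cy3-high for 10 of 20 and Cy5-high for 3, with Inmt at -4.29, Mfap4 at -3.62 and Col1a1, collagen I, at 1.49. Macrophage markers were split there, 4 of 18 on each side, and of 7 red blood cell genes 2 were Cy3-high and 1 Cy5-high. Cell cycle genes were Cy5-high for 5 of 20 and Cy3-high for 0, with Cdk1 at 1.73 and Rrm2 at 1.69 in the authors' deposited table. The part of these other cells in the alveolar values was not tested.

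**Figure D4:**
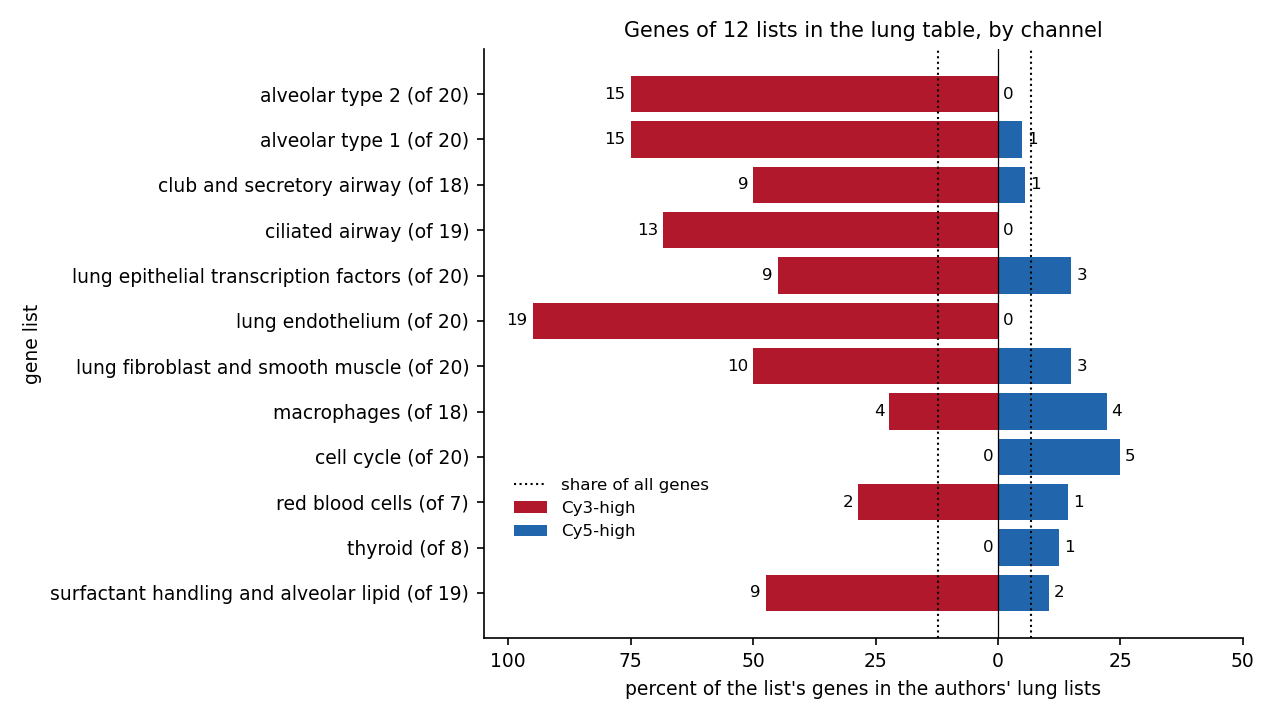
Percent of the genes of 12 marker lists that were Cy3-high (red, left) or Cy5-high (blue, right) in the authors' deposited lung table, with the count beside each bar. Dotted lines give the shares over all genes of the design (12.3% and 6.74%). The endothelial list (19 of 20) and both alveolar lists (15 of 20 each) have the highest Cy3-high shares.

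Apart from cell cycle genes in stomach, the medians of these lists lay between -0.25 and 0.17 in stomach and liver. Over all genes measured, 0.873% were Cy5-high and 1.41% Cy3-high in stomach, and 0.152% and 0.0703% in liver. In stomach the type 2 list had a median of 0.17 over 19 genes, with 3 Cy5-high (S100g at 1.21, Lyz2 at 1.18 and Ctsh at 1.16) and 1 Cy3-high (Cd36 at -2.33). The type 1 list had a stomach median of -0.00, whose sign turned in 3 other settings, with Krt7 at 1.5 and Igfbp2 at -1.52. Club and secretory genes had a stomach median of -0.25 over 17 genes, 2 Cy5-high and 4 Cy3-high, among them Cyp2f2 at -2.68 and Gsta3 at 1.80. Endothelial genes had a median of -0.12 in stomach and 0.16 in liver, with none 2-fold apart. Cell cycle genes were Cy5-high for 8 of 20 in stomach, with a median of 0.83, and for 0 of 20 in liver. In liver only Cd36 (1.28) of the type 2 list and Cyp2f2 (-1.33) of the club list were 2-fold apart.

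The arrays carried signals of their labelled organs. Albumin (Alb) was saturated in both liver channels and read 170 and 191 in the stomach channels, while the parietal cell pump gene Atp4a read 8590 in Cy3 and 1060 in Cy5 in stomach against 159 and 130 in liver on its brighter probe. Of gene spots, 82.3% in Cy3 and 88.8% in Cy5 were well above background in stomach, and 84.1% and 90.0% in liver. The number of arrays, 1 per organ, limits the precision of every comparison.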

How the data were processed

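RNA of 1 tissue pair per organ was labelled with Cy3 and Cy5 and hybridised to 2-colour Agilent mouse arrays. Agilent Feature Extraction 8.5.1.1 read the scanned images, per the submitters' processing notes. The deposited intensity columns give mean spot and median background brightness, and processed signals corrected for background and dye, per the file headers. The deposited log10 ratio is Cy5 over Cy3 processed signal with an error model's p-value for 1 spot, per the file headers. The p-value was used only to check the authors' lists.

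For liver and stomach, background was corrected with normexp (offset 50) and ratios were normalized by loess with limma 3.58.1 in R 4.3.3, control spots having weight 0. Probes well above background in at least 1 channel were kept, and outlier-flagged spots and spots saturated in both channels were left out. Gene values are means over probes, with the SD between probes or, for 1 probe, the scanner error as log2. The scanner error was computed for the scanner software's own ratio and not for the loess ratio it stands beside. For lung, the authors' deposited log10 ratios were turned into log2, averaged over listed spots, and joined to probes by spot number. Its 2 signal columns change order at 1776 spots, none of them of the 10 genes. The authors' selection rule was not given in the sources used here. Tables were made with Python 3.11.15 and pandas 2.3.3.

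Of 41174 probes, 79.4% were named through RefSeq GRCm38.p6 tables by accession, symbol or synonym, and the others kept the name in the file. All 10 genes were named with every probe. From each marker list and organ up to 4 genes with the largest ratio of at least 2-fold, and its first 3 genes, could be named. The genes and lists were chosen with earlier results of these data known. The normalization was tested on simulated data whose changed spots were all brighter than the array's median. That test does not cover dim probes, as many of these genes have in stomach and liver. With 1 array per organ no test was run. Alternatives were other background corrections, normalizations, filters, probe choices and fold limits.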

Additional observations from a re-analysis of the deposited data

Results flagged for a closer look

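Sftpd was Cy3-high in lung (-2.78 log2, the authors' deposited table) and Cy5-high in stomach (1.89), so 1 array moved each way. This difference between organs was not tested. Of 5200 genes with a lung and a stomach value, 17 were at least 2-fold Cy3-high in lung and at least 2-fold Cy5-high in stomach, and Sftpd was the second of them by its stomach ratio, after the lysozyme gene Lyz1 (2.52). For comparison, 127 genes were Cy5-high in both organs, 130 Cy3-high in both, and 34 Cy5-high in lung and Cy3-high in stomach.

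Among the type 2 markers, S100g (-4.95 in lung, 1.21 in stomach) and Lyz2 (-3.10 in lung, 1.18 in stomach with an SD of 0.93 between 2 probes) were opposite in the same way. Cd36, a fatty acid transporter, was Cy3-high in lung (-3.49) and stomach (-2.33) and Cy5-high in liver (1.28). The macrophage list's Fabp4, a fatty acid binding protein, was Cy5-high in lung (3.16) and Cy3-high in stomach (-1.54). All lung values here are from the authors' deposited table, and none of these differences between organs was tested.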

How the results depend on the processing

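In lung, the direction and the 2-fold count were fixed by the table, which lists only spots at least 2-fold apart. The alternatives could therefore not change them. At 3-fold the count of Cy3-high genes was also 8, where 1869 of all 27677 genes were Cy3-high. In stomach, 6 of 61 recomputed values of single genes moved by more than their error, and in liver 3 of 63. Of the stomach values that moved, 3 were of Sftpd, so its size depended on the processing. Its stomach ratio stayed Cy5-high, from 1.49 to 2.93 over its 7 alternatives. Values near 0 took either sign, such as Ager in stomach, from -0.39 to 0.63. The number of genes at least 2-fold Cy3-high in stomach, 0 as reported, was 1 with the scanner software's own ratio, where Nkx2-1 reached -1.46 with Cy5 not well above background (scanner error 2.95); the same ratio made 1049 genes of the whole array Cy3-high, against 358. The liver and stomach ratios each compare tissues of 1 mouse, whereas the lung tissues came from different mice. With 1 array per organ these pairs had no replicate, so no paired test was possible. Leaving out a replicate was not possible for the same reason. Low signal over background is a further limit in stomach and liver, where many probes of these genes were close to the negative controls.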
